A study of Mus musculus with 16 samples.

Results

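The 8 genes described here encode proteins of the secondary (specific) and tertiary (gelatinase) granules of neutrophils or of the stage of maturation at which those granules are filled. They are Camp, Ngp, Ltf, Lcn2, Cd177, Pglyrp1, Chil3 and Mmp8, a list set by name but with earlier results of these data known. All 8 were measured among the 17119 genes shared by the tables of fat pad and liver tumors. They were followed through 16 RNA sequencing libraries from tumors of 4T1, a mammary carcinoma line of BALB/c origin that stands in for triple-negative breast cancer. All libraries came from wild-type female BALB/c mice, 6 weeks old in the housing protocol, that carried 4T1 tumors grown for 15 days. The group pre_SC (3 libraries) held tumors of the mammary fat pad, seeded with 400000 cells and called subcutaneous by the submitters, without paclitaxel, and post_SC (3 libraries) held such tumors after paclitaxel. The group pre_Liver (5 libraries) held tumors seeded with 200000 cells under the capsule of the left liver lobe, without paclitaxel, and post_Liver (5 libraries) held such tumors after paclitaxel. Paclitaxel, a microtubule stabiliser that arrests dividing cells, was given into the peritoneum at 10 mg/kg, 5 times a week for 2 weeks, and the protocol gives PBS to controls. The design text calls the untreated tumors those before chemotherapy. No label says whether they were PBS controls of the same age, nor that the libraries of a group come from different mice, and p-values here rest on the spread among libraries, which may be technical. The comparisons ask how the 8 genes differ between the sites before and after paclitaxel and how they change with it at each site.

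A neutrophil builds its granules in sequence as it matures in the bone marrow. Primary (azurophil) granules with myeloperoxidase and elastase are filled at the promyelocyte stage, secondary granules with lactoferrin and cathelicidin at the myelocyte and metamyelocyte stages, and tertiary granules with gelatinase in band cells. The transcription factor C/EBP epsilon (Cebpe) is needed for the secondary granule genes, and circulating mature neutrophils hold the proteins while their messenger RNA for them has largely been shut off. In 4T1 tumors, which release granulocyte colony stimulating factor (Csf3), large numbers of granulocytic cells gather in blood and tissues.

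The proximal promoters are shown because the 8 genes rose together in treated liver tumors and because C/EBP factors are known regulators of this gene class. All 8 genes had an entry in the RefSeq promoter table of build GRCm38.p6, and those of Lcn2 and Pglyrp1 are not shown because their windows lie wholly inside the GENCODE gene. Each sequence is the part of the 250 bases before the RefSeq start that also lies before the start of the GENCODE gene, read 5′ to 3′ on the gene's strand. Capitals mark matches to the C/EBP pattern TTNNGNAA on either strand (TTNCNNAA on the other). The positions are chr9:109849618-109849706 on the minus strand for Camp, chr9:110419558-110419746 on the plus strand for Ngp, chr9:111019042-111019270 on the plus strand for Ltf, chr7:24760312-24760561 on the minus strand for Cd177, chr9:7558179-7558428 on the plus strand for Mmp8 and chr3:106167565-106167814 on the minus strand for Chil3.
Camp: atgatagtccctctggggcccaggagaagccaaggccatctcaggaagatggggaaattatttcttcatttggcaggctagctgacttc
Ngp: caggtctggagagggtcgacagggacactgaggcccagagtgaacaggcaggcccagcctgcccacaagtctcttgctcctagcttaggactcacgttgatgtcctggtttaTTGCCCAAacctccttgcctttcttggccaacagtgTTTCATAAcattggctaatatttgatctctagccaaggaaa
Ltf: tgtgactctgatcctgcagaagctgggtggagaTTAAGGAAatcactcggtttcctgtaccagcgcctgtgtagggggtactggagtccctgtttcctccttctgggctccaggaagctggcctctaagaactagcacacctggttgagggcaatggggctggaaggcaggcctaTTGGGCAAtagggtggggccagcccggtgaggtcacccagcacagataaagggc
Cd177: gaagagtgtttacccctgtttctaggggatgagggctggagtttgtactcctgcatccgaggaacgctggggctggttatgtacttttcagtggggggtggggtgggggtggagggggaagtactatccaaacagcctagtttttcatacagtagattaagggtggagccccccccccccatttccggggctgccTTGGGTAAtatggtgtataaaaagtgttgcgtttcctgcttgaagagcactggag
Mmp8: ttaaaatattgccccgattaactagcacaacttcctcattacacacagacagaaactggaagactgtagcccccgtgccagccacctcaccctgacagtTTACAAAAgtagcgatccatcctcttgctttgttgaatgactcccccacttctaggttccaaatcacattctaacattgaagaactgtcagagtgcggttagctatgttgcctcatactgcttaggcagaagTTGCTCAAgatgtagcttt
Chil3: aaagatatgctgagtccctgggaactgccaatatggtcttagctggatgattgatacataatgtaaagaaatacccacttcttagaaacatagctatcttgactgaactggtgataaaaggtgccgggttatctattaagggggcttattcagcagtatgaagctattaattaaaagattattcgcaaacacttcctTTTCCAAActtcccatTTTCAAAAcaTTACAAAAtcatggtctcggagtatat
Over the full 250 bases, 6 of the 8 genes had at least 1 C/EBP match, as did 36.8% of the 32851 mouse promoters searched, and Camp and Pglyrp1 had none. The promoters searched left out a chromosome that holds none of the 8 genes. Ngp and Chil3 had 3 matches each. The pattern GAGGAA, read by ETS factors such as PU.1, was found in 5 of the 8 (23.3% of the promoters searched). The NF-kB pattern (GGG, any 5 bases, then CC) was found in 5 of the 8 (45.8% of the promoters searched). Both strands were read. No C/EBP match in these windows overlapped a match to either of the other patterns. A match is a run of letters and not a shown binding site.

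Of the 8 genes, 4 lie on chromosome 9 and 3 of those lie on a stretch with at most 1170 kb between them. In GRCm38 with the GENCODE annotation, Camp spans chr9:109847379-109849617 on the minus strand, Ngp chr9:110419747-110423012 on the plus strand and Ltf chr9:111019271-111042767 on the plus strand. Camp and Ngp are separated by 570 kb with 8 coding genes between them, and Ngp and Ltf by 596 kb with 20 coding genes. Mmp8 lies far from them at chr9:7558456-7568485. The others are Lcn2 at chr2:32384633-32388252, Cd177 at chr7:24743983-24760311, Pglyrp1 at chr7:18871331-18890459 and Chil3 at chr3:106147554-106167564. All 8 are protein coding and none overlaps another annotated gene.

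Values are TPM, length-scaled transcript abundances that bring each library to the same total, so levels can be compared between genes. The sequencing depth behind them is unknown. The fat pad and liver values come from tables deposited separately, and both were brought to TPM over the same genes before any comparison across sites. The liver suspensions differed in how much liver-enriched RNA they held. A set of 290 liver-enriched genes took 8.84% to 37.1% of the TPM in pre_Liver, 1.19% to 23.8% in post_Liver and at most 0.121% in the fat pad libraries. The set joined the hepatocyte and acute phase lists with all other genes, members apart, far higher in liver than in fat pad libraries. It therefore also held neutrophil genes such as Mpo and Elane and does not measure host liver RNA alone. Albumin (Alb) ran from 738 to 61489 TPM in the liver libraries and was at most 4.24 TPM in the fat pad, and the carcinoma marker Epcam was present in all 16 libraries at 22.4 to 1098 TPM. The submitters' combined table of untreated tumors offsets pre_Liver replicates 4 and 5 differently from replicates 1 to 3 and pre_SC. The liver response and the site difference before treatment were therefore also computed with replicates 1 to 3 only. The difference of the paclitaxel response between the sites was not. Replicates 2 and 3 of post_Liver were the most alike pair within any group (Pearson r of 0.992 across 13701 genes, which are not independent), and were also averaged as 1.

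All 8 genes rose with paclitaxel in liver tumors, by 2.00 to 5.36 on the log2(TPM + 1) scale, where 2.24% of the 13552 genes tested were called higher. In fat pad tumors Chil3 was the 1 of 7 tested to be called higher (2.63% of all genes), while the differences of Camp and Ngp were below 0 and not called. After treatment 7 of the 8, all but Lcn2, were higher in the liver than in the fat pad (6.65% of all genes), and before treatment 3 of the 8 were (14.9% of all genes). Genes were called at an adjusted p under 0.05 by limma with Benjamini-Hochberg adjustment over all genes tested. In a bulk suspension, fewer cells of a type and less RNA per cell cannot be told apart.

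**Figure D1:**
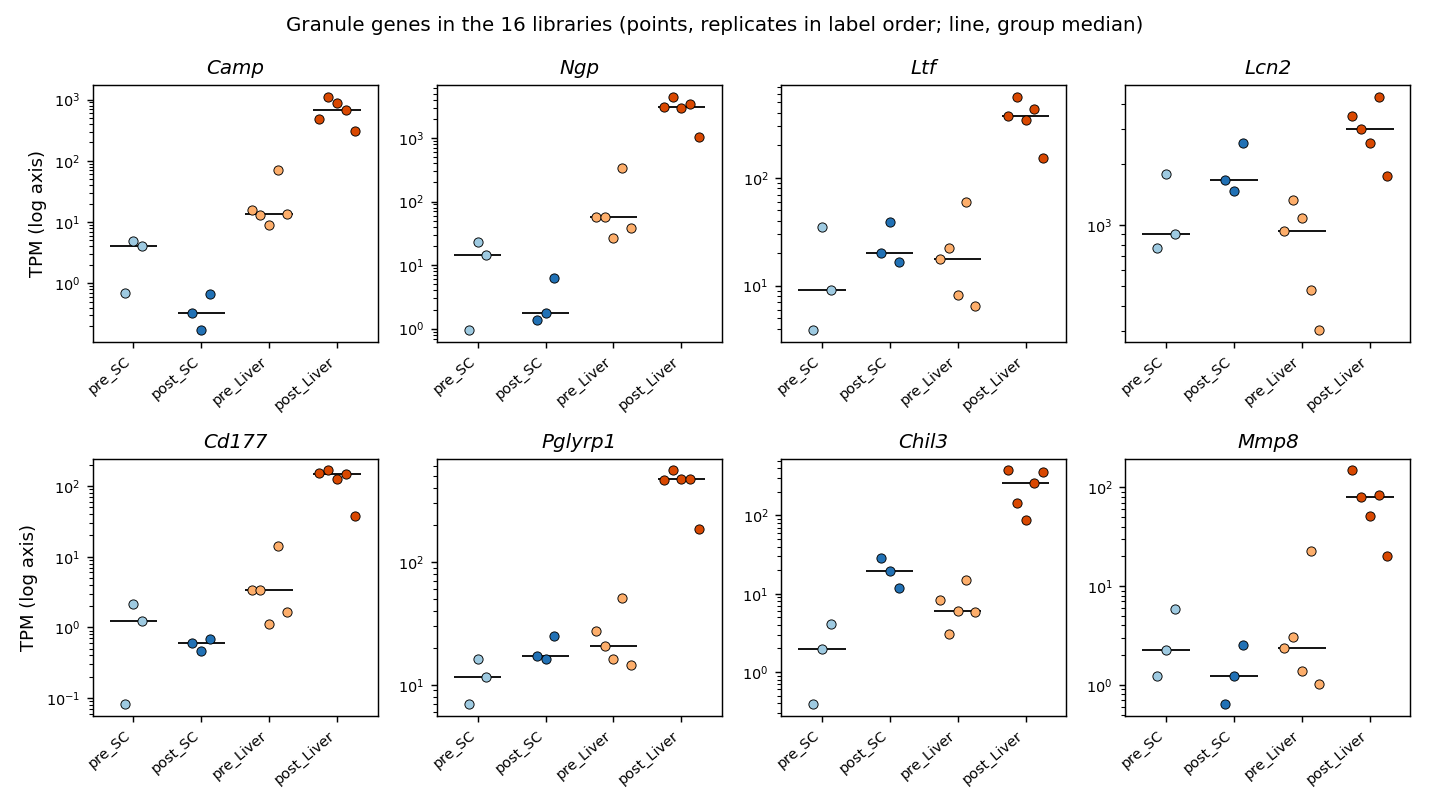
TPM of each granule gene (log axis) in the 16 libraries, with replicates in label order within each group and the group median as a line. All 5 post_Liver libraries lie above the other 11 for Camp, Ngp, Ltf, Cd177, Pglyrp1 and Chil3, while Lcn2 is high in every group and the Mmp8 value of pre_Liver replicate 4 (22.5 TPM) lies above that of post_Liver replicate 5 (20.1 TPM).

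Camp encodes the precursor of cathelicidin, an antimicrobial peptide stored in secondary granules. Its level in replicates 1 to 3 was 0.701, 4.98 and 4.04 TPM in pre_SC and 0.321, 0.171 and 0.656 TPM in post_SC. In replicates 1 to 5 it was 16, 12.9, 8.93, 69.9 and 13.3 TPM in pre_Liver and 478, 1122, 888, 686 and 309 TPM in post_Liver. The 4 groups did not overlap, and they stood in the order post_SC, pre_SC, pre_Liver, post_Liver. Camp rose in the liver by 5.07 ± 0.53 (log2 difference ± SE, 5 against 5 libraries; adjusted p = 0.00302, limma). In the fat pad its difference was −1.44 ± 0.47 (3 against 3), which did not pass (adjusted p = 0.105, limma).

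Ngp encodes neutrophilic granule protein, a cathelin-related protein of secondary granules. Its level was 0.948, 23 and 14.3 TPM in pre_SC and 1.38, 1.75 and 6.23 TPM in post_SC. In the liver it was 57.6, 57, 26.4, 340 and 38.8 TPM in pre_Liver and 3087, 4472, 2976, 3456 and 1035 TPM in post_Liver. The fat pad groups overlapped, and every liver library was above every fat pad library. With these values Ngp ranked between 18 and 155 of 17119 genes by TPM in the treated liver libraries, and between 9864 and 12585 in the treated fat pad libraries. It rose in the liver by 5.36 ± 0.64 (adjusted p = 0.00432, limma), the largest difference among the 8, and its fat pad difference of −1.31 ± 0.90 did not pass (adjusted p = 0.377, limma).

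Ltf encodes lactoferrin, the iron-binding protein that defines secondary granules. Its level was 3.87, 34.7 and 9.17 TPM in pre_SC, 20.2, 38.7 and 16.6 TPM in post_SC, and 17.5, 22.3, 8.19, 59.6 and 6.43 TPM in pre_Liver. These 3 groups overlapped each other. In post_Liver it was 371, 567, 342, 436 and 152 TPM, above all other libraries. Ltf rose in the liver by 4.27 ± 0.55 (adjusted p = 0.0057, limma), and in the fat pad its difference was 1.02 ± 0.67 (adjusted p = 0.357, limma). Camp was only 0.171 to 0.656 TPM in the post_SC libraries. Which cells held the Ltf RNA of the fat pad was not tested.

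Pglyrp1 encodes a peptidoglycan recognition protein that binds bacterial cell walls and is released from neutrophil granules. Its level was 6.99, 16.1 and 11.5 TPM in pre_SC and 17, 16.3 and 25 TPM in post_SC. In the liver it was 27.4, 20.6, 16.1, 51 and 14.4 TPM before and 465, 556, 473, 476 and 186 TPM after treatment. The fat pad groups did not overlap, the treated one being higher, but the highest untreated and lowest treated values were close. Pglyrp1 rose in the liver by 4.06 ± 0.38 (adjusted p = 0.00203, limma), and its fat pad difference of 0.75 ± 0.30 did not pass (adjusted p = 0.158, limma).

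Cd177 encodes a glycoprotein of the neutrophil surface and secondary granule membrane, and Mmp8 encodes neutrophil collagenase, stored in granules as an inactive enzyme. Cd177 was at 0.0824, 2.11 and 1.22 TPM in pre_SC and at 0.604, 0.457 and 0.694 TPM in post_SC, a mean below the 1 TPM needed for the fat pad test. In the liver it was at 3.38, 3.43, 1.1, 14 and 1.66 TPM before and at 151, 167, 124, 149 and 38.3 TPM after treatment. Cd177 therefore had no overlap between the liver groups, and its rise there was 4.69 ± 0.56 (adjusted p = 0.00432, limma). Mmp8 was at 1.22, 2.24 and 5.84 TPM in pre_SC, 0.642, 1.22 and 2.53 TPM in post_SC, 2.35, 3.05, 1.38, 22.5 and 1.03 TPM in pre_Liver, and 149, 80.3, 51.6, 84.7 and 20.1 TPM in post_Liver. For Mmp8 alone of the 8 the liver groups overlapped, by 1 library on each side. It rose in the liver by 3.91 ± 0.70 (adjusted p = 0.0185, limma), a call that was lost without any 1 of pre_Liver replicates 3 and 5 and post_Liver replicates 1 and 2 (adjusted p 0.0551 to 0.0659). Its fat pad difference of −0.65 ± 0.46 did not pass (adjusted p = 0.392, limma).

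Lcn2 encodes lipocalin 2, which binds bacterial siderophores. It is stored in secondary granules but is also made by epithelial cells, carcinoma cells and hepatocytes, so its RNA is no marker of neutrophils alone. Its level was 775, 1795 and 907 TPM in pre_SC and 1666, 1476 and 2548 TPM in post_SC. In the liver it was 938, 1327, 1091, 476 and 302 TPM before and 3483, 3009, 2563, 4331 and 1754 TPM after treatment. Lcn2 was the most abundant of the 8 in each fat pad and untreated liver library, and its lowest value over the 16 libraries exceeded the highest of every other member outside post_Liver except that of Ngp in pre_Liver replicate 4. It rose in the liver by 2.00 ± 0.44 (adjusted p = 0.0374, limma), the smallest difference of the 8, and the call was lost without any 1 of 7 of the 10 liver libraries, pre_Liver replicates 1, 3, 4 and 5 and post_Liver replicates 1, 2 and 3 (adjusted p 0.0583 to 0.104). With pre_Liver replicates 1 to 3 only, its difference was 1.39 (adjusted p = 0.17, limma). In the fat pad the difference was 0.77 ± 0.33 (adjusted p = 0.183, limma).

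Chil3 encodes Ym1, a chitinase-like secreted protein made by maturing neutrophils and also by alternatively activated and alveolar macrophages. It is nearly identical to its paralog Chil4, and how reads were shared between them is not given in the sources used here. Chil4 itself was listed at 0 to 2.23 TPM over the 16 libraries. Chil3 was at 0.392, 1.97 and 4.12 TPM in pre_SC and at 28.3, 19.8 and 12 TPM in post_SC. In the liver it was at 8.23, 3.07, 6.11, 15.2 and 5.77 TPM before and at 377, 146, 86.8, 258 and 357 TPM after treatment. The treated libraries were above the untreated ones at both sites. The rise was 2.85 ± 0.49 in the fat pad (adjusted p = 0.0221, limma) and 4.78 ± 0.46 in the liver (adjusted p = 0.00209, limma). The fat pad call was lost without any 1 of pre_SC replicates 1 and 2 and post_SC replicate 1 (adjusted p 0.0614 to 0.0775).

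Across the liver comparison the median difference of the members was 4.48, against 0.39 over all genes tested. For 7 of the 8 the groups did not overlap, with the treated group higher, as held for 5.14% of all genes. Scaling by the median of ratios moved the median of all genes to 0.03, and the differences of the 8 then ran from 1.60 for Lcn2 to 4.95 for Ngp. Under that scaling 6 of the 8 were called, Lcn2 (adjusted p = 0.0641) and Mmp8 (adjusted p = 0.0536) being the exceptions. The calls of Camp, Ngp, Ltf, Cd177, Pglyrp1 and Chil3 held in all 20 alternatives run for this comparison, with adjusted p of at most 0.0248. With pre_Liver replicates 1 to 3 only, the differences of these 6 genes were 4.21 to 5.90. With post_Liver replicates 2 and 3 averaged as 1, 7 of the 8 were called, Lcn2 not (2.02, adjusted p = 0.0891, limma).

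**Figure D2:**
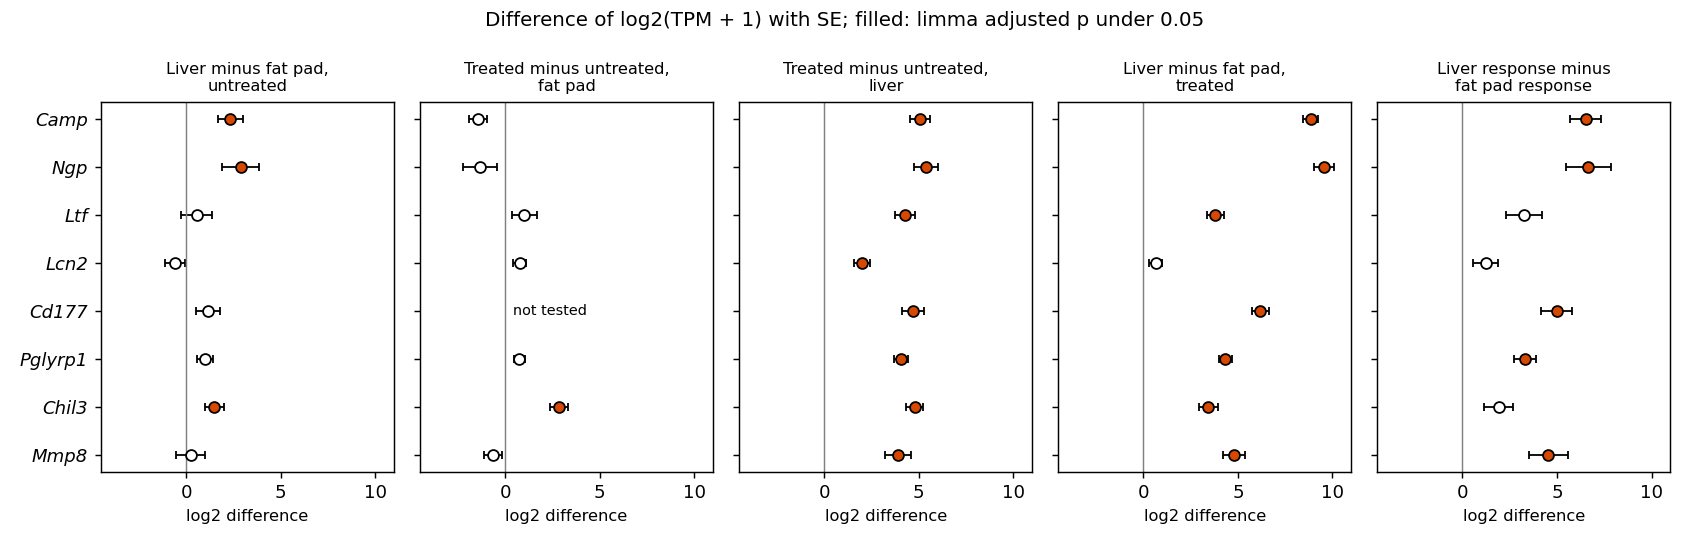
Difference of log2(TPM + 1) with its SE for each gene in the 5 comparisons, filled where limma gave an adjusted p under 0.05. All 8 points are filled and above 0 in the liver response, and in the fat pad response only Chil3 (2.85) is filled.

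In the fat pad, 1 of 7 members tested was called higher, where 2.63% of the 13155 genes tested were called higher and 4.36% lower. The members' median difference was 0.75, against −0.03 over all genes, and the members ranged from −1.44 for Camp to 2.85 for Chil3. The groups did not overlap for Chil3 and Pglyrp1, higher after treatment (15.9% of all genes), and for Camp, lower after treatment (18.8% of all genes). Replicate 1 of pre_SC was the lowest of its group for all 8 genes. Without it the difference of Camp was −2.0 (adjusted p = 0.0505, limma) and that of Ngp was −2.40 (adjusted p = 0.0819, limma). S100a8 and S100a9, the calprotectin subunits abundant in neutrophils, had differences of −1.21 ± 0.65 and −1.79 ± 0.46 in the same comparison, neither called.

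The interaction term, the liver response minus the fat pad response in 1 fit of the 4 groups, was above 0 for all 8 genes and was called for 5 of them, where 2.23% of the 13701 genes tested were called in that direction. It was 6.66 ± 1.19 for Ngp (adjusted p = 0.0111, limma), 6.51 ± 0.82 for Camp (adjusted p = 0.00252) and 5.00 ± 0.82 for Cd177 (adjusted p = 0.00783). Pglyrp1 had 3.31 ± 0.58 (adjusted p = 0.0105) and Mmp8 4.55 ± 1.03 (adjusted p = 0.0323). The Mmp8 call was lost without any 1 of 10 of the 16 libraries (adjusted p 0.0537 to 0.109), all 3 of pre_SC and of post_SC, replicates 3 and 5 of pre_Liver and replicates 1 and 2 of post_Liver. The 3 genes that did not pass were Ltf (3.25 ± 0.97, adjusted p = 0.0763), Chil3 (1.93 ± 0.77, adjusted p = 0.148) and Lcn2 (1.23 ± 0.65, adjusted p = 0.235). Ltf passed without pre_Liver replicate 2 (adjusted p = 0.0385) or replicate 4 (adjusted p = 0.047). The 95% intervals of the differences that missed were 1.19 to 5.32 for Ltf, 0.29 to 3.56 for Chil3 and −0.14 to 2.61 for Lcn2.

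After treatment, 7 of 8 members were higher in the liver than in the fat pad, where 6.65% of the 13765 genes tested were called higher. The difference was 9.55 ± 0.51 for Ngp (adjusted p = 5.81e-05, limma), 8.85 ± 0.39 for Camp (adjusted p = 2.3e-05) and 6.17 ± 0.45 for Cd177 (adjusted p = 0.000235). Mmp8, Pglyrp1, Ltf and Chil3 followed with 4.80, 4.34, 3.81 and 3.43. The groups did not overlap for these 7 genes, with the liver higher, as for 14.1% of all genes. These calls held in all 16 alternatives. Lcn2 differed by 0.65 ± 0.33 (95% interval −0.10 to 1.40, adjusted p = 0.224), and its groups overlapped.

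Before treatment, 3 of 8 members were higher in the liver, where 14.9% of the 13479 genes tested were called higher and 47.6% were called in either direction. These were Camp (2.34 ± 0.66, adjusted p = 0.0243, limma), Ngp (2.89 ± 0.98, adjusted p = 0.0404) and Chil3 (1.5 ± 0.51, adjusted p = 0.0414). The liver and fat pad groups did not overlap for Camp and Ngp (16.6% of all genes in that direction) and overlapped for Chil3. Pglyrp1 (1.02 ± 0.42, adjusted p = 0.0695), Cd177 (1.16 ± 0.63), Ltf (0.56 ± 0.80), Mmp8 (0.24 ± 0.78) and Lcn2 (−0.58 ± 0.52) were not called. The members' median was 1.09, against −0.51 over all genes, and with scaling by the median of ratios the median of all genes was −0.02 and Pglyrp1 was also called (1.52, adjusted p = 0.0361). On TPM, 2007 genes were called higher and 4406 lower, and with that scaling 3079 higher and 2466 lower. The Camp call was lost without pre_SC replicate 1 (1.78, adjusted p = 0.101) or replicate 3 (adjusted p = 0.0605), and the Ngp and Chil3 calls were each lost without any 1 of 6 of the 8 libraries (adjusted p 0.0535 to 0.159). With pre_Liver replicates 1 to 3 only, Camp remained called (1.84, adjusted p = 0.0239) and Ngp (2.34, adjusted p = 0.0663) and Chil3 (1.22, adjusted p = 0.0884) were not.

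Single libraries stood apart within the liver groups for most of the 8 genes. Replicate 4 of pre_Liver was the highest of its group for 7 of the 8 genes, all but Lcn2, by 1.85 times the next library for Chil3 and up to 7.39 times for Mmp8. Replicate 5 of post_Liver was the lowest of its group for 7 of the 8, all but Chil3. In that library Ngp was 1035 TPM, against 2976 to 4472 TPM in the other 4. The liver-enriched genes took 37.1% of the TPM of pre_Liver replicate 4 and 36.7% of pre_Liver replicate 5, in which 4 of the 8 granule genes were the lowest of their group. The epithelial marker Epcam was 22.4 and 34.3 TPM in these libraries and 151 to 424 TPM in the other 3 of pre_Liver. The part of liver or carcinoma content in these differences was not tested.

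The level of each gene was also set against that of S100a8 in the same library, and these ratios are descriptions with no test. In the liver the ratios to S100a8 of the untreated and treated groups overlapped for all 8 genes, while their levels overlapped for Mmp8 alone. S100a8 itself rose there by 5.13. Ngp was 0.555 to 0.885 of S100a8 in pre_Liver and 0.744 to 1.12 in post_Liver. Camp was 0.126 to 0.303 and then 0.128 to 0.334, and Cd177 was 0.0315 to 0.0423 and then 0.0286 to 0.0415. The overlapping liver ratios of the others were those of Ltf (0.143 to 0.234, then 0.0855 to 0.164), Pglyrp1 (0.122 to 0.462, then 0.0951 to 0.201), Mmp8 (0.0234 to 0.054, then 0.0129 to 0.0401), Chil3 (0.0299 to 0.175, then 0.0217 to 0.387) and Lcn2 (1.14 to 31.2, then 0.515 to 1.9). In the fat pad the ratio of Camp was lower in every treated library than in any untreated one (0.0572 to 0.0693, then 0.0132 to 0.0301). The ratios of Ltf (0.13 to 0.482, then 0.764 to 2.98), Pglyrp1 (0.162 to 0.62, then 1.12 to 1.26), Lcn2 (12.9 to 68.8, then 110 to 117), Chil3 (0.0274 to 0.0583, then 0.549 to 1.87) and Cd177 (0.00731 to 0.0293, then 0.0319 to 0.04) were higher in every treated library than in any untreated one. The fat pad ratios of Ngp (0.0841 to 0.319, then 0.0912 to 0.286) and Mmp8 (0.0312 to 0.108, then 0.0425 to 0.116) overlapped. S100a8 itself was 11.3, 71.9 and 70.6 TPM in pre_SC and 15.1, 13 and 21.8 TPM in post_SC, so its change enters all 8 ratios. The share of all genes whose ratio to S100a8 separated the fat pad groups was not computed. Ly6g, a surface marker that increases as mouse neutrophils mature, was 0.0574 to 0.376 of S100a8 in pre_Liver and 0.0154 to 0.0388 in post_Liver, without overlap. Cxcr2, the chemokine receptor of mature neutrophils, was 0.0279 to 0.205 and then 0.00821 to 0.0134. The liver ratios of 2 other neutrophil genes, Csf3r (0.0891 to 0.581, then 0.0204 to 0.0955) and Retnlg (0.0486 to 0.498, then 0.0632 to 0.106), overlapped. So did those of S100a9 (0.935 to 1.81, then 0.887 to 1.54), Mpo (0.127 to 0.272, then 0.0739 to 0.172), Elane, Cebpe and Mmp9. With Ly6g in place of S100a8, the liver ratios of Camp, Ngp, Ltf, Cd177, Pglyrp1 and Chil3 did not overlap and were higher after treatment. Camp was 0.679 to 2.92 and then 5.96 to 9, and Ngp 2.01 to 14.2 and then 23.5 to 53.7. The ratios to Ly6g of Lcn2 (19.9 to 136, then 16 to 60.6) and Mmp8 (0.0775 to 0.941, then 0.408 to 2.6) overlapped. The overlap in the liver thus depends on the reference gene.

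**Figure D3:**
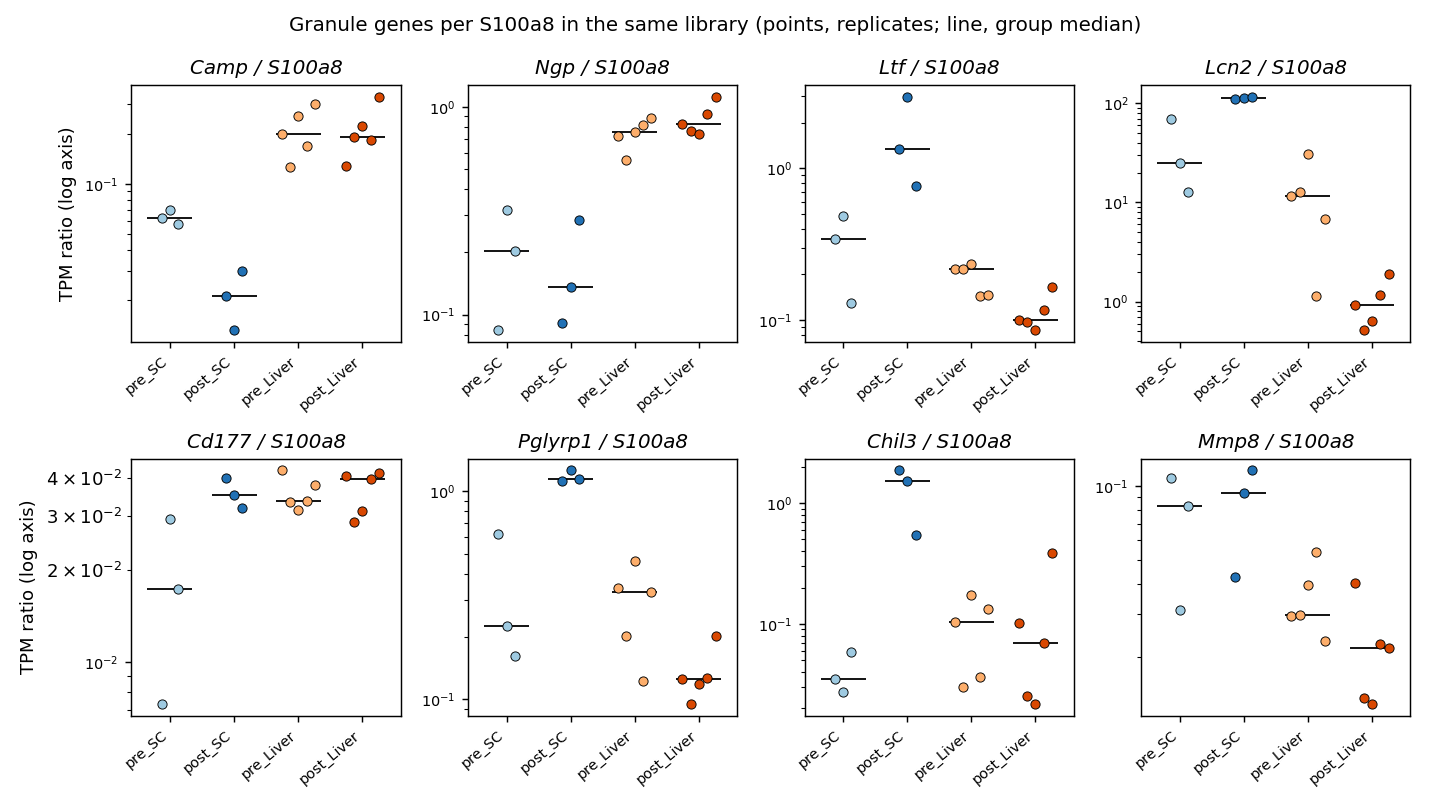
Ratio of each gene's TPM to that of S100a8 in the same library (log axis), with replicates as points and the group median as a line. The pre_Liver and post_Liver ranges overlap for all 8 genes, whereas in the fat pad the treated libraries lie above the untreated ones for Ltf, Lcn2, Cd177, Pglyrp1 and Chil3, below them for Camp and among them for Ngp and Mmp8.

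Genes of the other stages of neutrophil maturation were taken from lists chosen by function, also with earlier results of these data known. In the liver response 7 of 9 measured primary granule genes rose, with a median of 3.87. Myeloperoxidase (Mpo) rose by 4.59 ± 0.61 (adjusted p = 0.00597, limma), and the serine proteases elastase (Elane, 4.76 ± 0.61) and proteinase 3 (Prtn3, 3.87 ± 0.46) and Prss57 (2.92 ± 0.36) and the promyelocyte gene Ms4a3 (4.73 ± 0.52) rose too. Mpo went from 7.37 to 66.5 TPM in pre_Liver to 125 to 640 TPM in post_Liver. It was at most 2.38 TPM in every fat pad library and was at 0 in 1 of them. Of 20 other secondary and tertiary granule genes 5 rose, with a median of 1.16. They included ficolin B (Fcnb, 4.12 ± 0.52), olfactomedin 4 (Olfm4, 2.76 ± 0.43), Arhgdib (1.65 ± 0.31), a gene active in leukocytes generally, and the beta integrin gene Itgb2l (1.88 ± 0.36). Gelatinase B (Mmp9), the defining enzyme of tertiary granules that carcinoma cells and macrophages also make, was 2.91 to 96.2 TPM before and 41 to 105 TPM after treatment (1.34 ± 0.76, adjusted p = 0.223), and it was 120 to 423 TPM in pre_SC.

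Of 24 mature neutrophil genes 16 rose in the liver, with a median of 1.75. S100a8 rose by 5.13 ± 0.69 (adjusted p = 0.00597, limma), S100a9 by 4.89 ± 0.72 (adjusted p = 0.0082) and Ly6g by 2.42 ± 0.42 (adjusted p = 0.016). The retroviral-like protease gene Asprv1 (3.54 ± 0.46) and the immune receptor gene Trem3 (3.38 ± 0.47) had differences between those of S100a9 and Ly6g, and the transcription factor gene Mxd1 rose by 1.69 ± 0.24. In the fat pad 5 of 22 fell, with a median of −1.0. They included interleukin 1 beta (Il1b, −2.57 ± 0.21, adjusted p = 0.00477), the itaconate enzyme Acod1 (−1.94 ± 0.19), the lectin receptor Clec4d (−1.48 ± 0.30) and the formyl peptide receptor Fpr2 (−1.42 ± 0.30). Among 4 primary granule genes tested in the fat pad limma called none, and none had an unadjusted p under 0.05, in either direction.

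Of 12 transcription factors of granulocyte development 3 rose in the liver. Cebpe rose by 3.48 ± 0.48 (adjusted p = 0.00709, limma), from 0.224 to 5.22 TPM in pre_Liver to 11.2 to 46.3 TPM in post_Liver without overlap. Gfi1, a repressor needed for neutrophil commitment, rose by 2.03 ± 0.24, and Spi1, which encodes PU.1, by 1.39 ± 0.26. In the fat pad 2 of 10 fell, the monocyte factor Irf8 (−0.97 ± 0.14) and Cebpb (−0.84 ± 0.15). Of 15 ligand, receptor and partner genes 2 rose in the liver, Trem1 (1.74 ± 0.35) and Fpr2 (1.98 ± 0.42), the receptor for cathelicidin-derived peptides. Csf3, the growth factor of this lineage, was 0.596 to 24.5 TPM in pre_Liver and 5.29 to 25.9 TPM in post_Liver (1.44 ± 0.76, adjusted p = 0.202). It was 42.6 to 73.8 TPM in pre_SC and 31.8 to 46.8 TPM in post_SC. Csf3 was lower in untreated liver than in untreated fat pad tumors (−3.16 ± 0.88, adjusted p = 0.0234, limma). In that comparison 47.6% of all genes were called in either direction. Of 12 carcinoma epithelial genes 11 were called lower there, with a median of −2.64. The part of carcinoma content in the Csf3 difference was not tested. After treatment the Csf3 difference of −1.13 ± 0.45 did not pass (adjusted p = 0.148, limma).

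**Figure D4:**
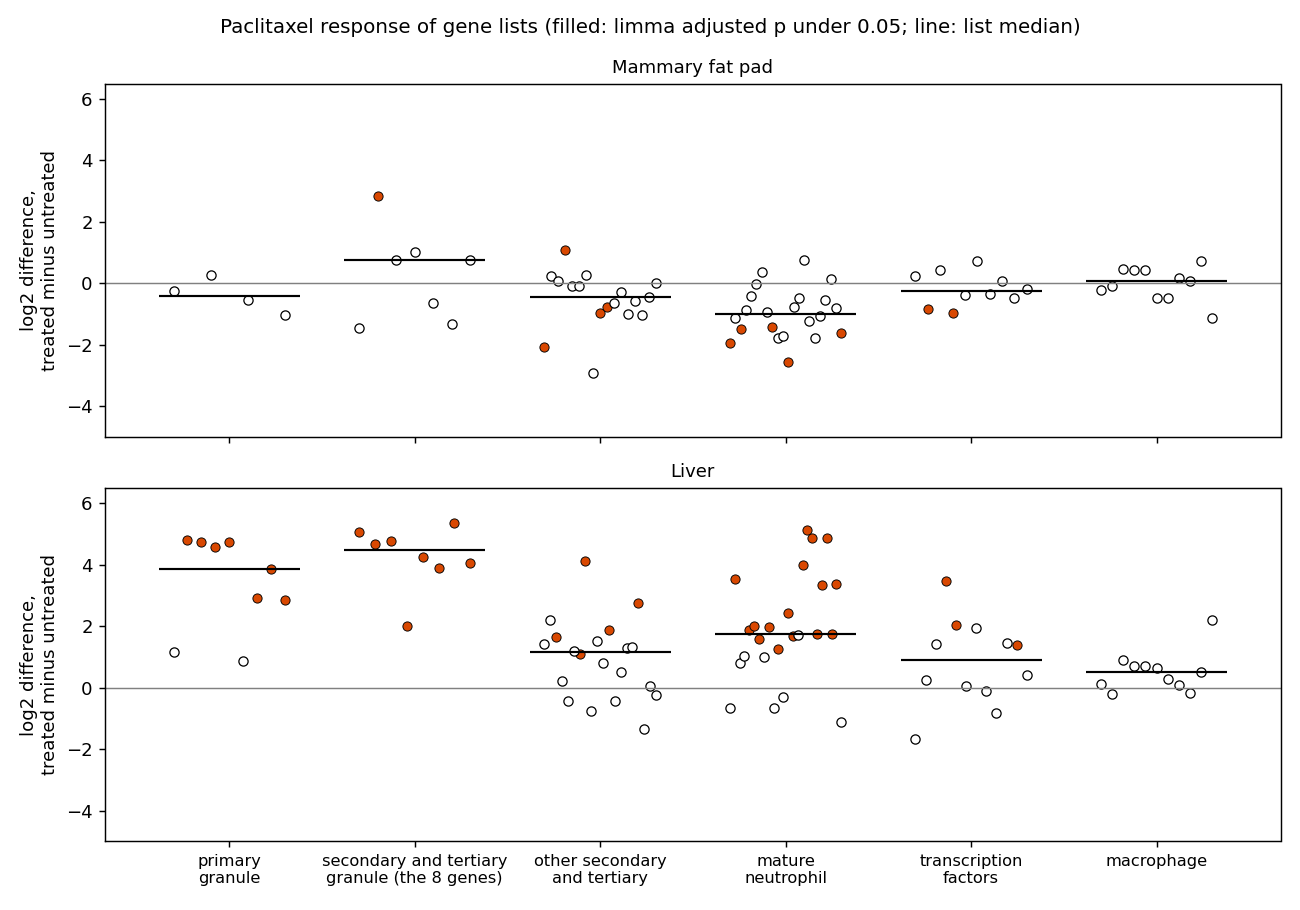
Treated minus untreated log2 difference of each tested gene in 6 lists, in the fat pad (upper) and the liver (lower), with the list median as a line and genes called by limma filled. In the liver the medians of the primary granule genes (3.87) and of the 8 genes described here (4.48) lie above that of the mature neutrophil genes (1.75). The liver median of the 20 other secondary and tertiary granule genes (1.16) lies below it. In the fat pad the mature neutrophil median is −1.0. Some RNA of the mature neutrophil list may come from other cells.

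Markers of other cells in the suspensions moved as follows in the liver response. The summed TPM of 12 hepatocyte genes was 39006 to 153397 in pre_Liver and 4094 to 97445 in post_Liver, with differences of −3.12 to −1.44, none called by limma and 9 with an unadjusted p under 0.05. The 11 acute phase genes of the liver, of which Hp and Orm1 are also granule genes of the list above, summed to 8260 to 20433 and 1461 to 33410 TPM, with none called and 3 lower at an unadjusted p under 0.05. The 12 carcinoma epithelial genes summed to 604 to 3540 and 1211 to 4452 TPM, with none called and 3 higher at an unadjusted p under 0.05. None of 11 macrophage genes was called, and none had an unadjusted p under 0.05, in either direction. In the same comparison 3 of 8 eosinophil and mast cell genes rose, the mast cell genes Cpa3 (2.45 ± 0.27), Fcer1a (1.80 ± 0.31) and Mcpt4 (1.89 ± 0.35), and 1 of 6 monocyte genes (F13a1, 1.90 ± 0.40). Their part in the values of the granule genes was not tested. The calls of the 6 genes that held in all alternatives also held when the liver-enriched genes were left out of the scale, with differences of 3.77 to 5.06. That set includes neutrophil genes such as Mpo and Elane.

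Likeness between genes was described by Pearson r of log2(TPM + 1) after subtracting each group's mean, over the 16 libraries, which share their makeup of cells and tissue. Among Camp, Ngp, Ltf, Cd177, Pglyrp1 and Mmp8 the 15 pairs had r of 0.67 to 0.96. Without pre_Liver replicate 4 they had 0.47 to 0.94, and without post_Liver replicate 5 as well 0.21 to 0.87, so part of the likeness rests on those libraries. Lcn2 had r of 0.02 to 0.35 with these 6 genes and Chil3 0.13 to 0.36. Without pre_Liver replicate 4, Lcn2 had 0.34 to 0.67 and Chil3 −0.15 to 0.10.

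Of all 11315 genes with a mean of at least 5 TPM, S100a8 was the most like Camp (r = 0.94), Ngp (0.96), Cd177 (0.96) and Pglyrp1 (0.94). The next most like were S100a9 and Fcnb for Camp (0.88 each), Mpo (0.87) and the protease gene Ctsg (0.86) for Ngp, Mpo (0.95) and Elane (0.94) for Cd177, and S100a9 (0.92) and the transcription factor gene Nfe2 (0.91) for Pglyrp1. Without pre_Liver replicate 4, r with S100a8 was 0.91 for Camp, 0.93 for Ngp, 0.94 for Cd177 and 0.90 for Pglyrp1. Mmp8 was most like Mpo (0.90), Ms4a3 (0.89) and Nfe2 (0.89). Without pre_Liver replicate 4 its r was 0.80 with Mpo and 0.82 with each of Ms4a3 and Nfe2, and without post_Liver replicate 5 as well it was 0.59, 0.70 and 0.62. Ltf was most like the receptor gene Mrgpra2b (0.87), which has near-identical paralogs, the chitinase-like gene Chil1 (0.86) and Elane (0.85). Lcn2 was most like Nlrx1 (0.83), Ppp1ccb (0.81) and Fam207a (0.80), none of them a granule gene of the lists used here. Chil3 was most like Steap3 (0.90), Gda (0.89) and Prl2c3 (0.88), the last from a family of near-identical copies. It had r of 0.64 with the macrophage marker Adgre1, 0.52 with Alb and 0.24 with S100a8. Without pre_Liver replicate 4 these 3 values were 0.67, 0.49 and −0.03, and without post_Liver replicate 5 as well 0.63, 0.44 and 0.23.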

How the data were processed

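Poly(A) RNA was sequenced from 16 digested tumor suspensions with RNA integrity numbers above 7, per the labels' protocols. The tools fastp and StringTie and the build GRCm38/mm10 are named, with no role or version, per the submitters' processing notes. The deposited tables name no unit. From the values, the authors' liver table holds FPKM with 2 decimals, their subcutaneous table holds TPM, and their untreated table holds scores, TPM plus a constant per gene and set of libraries. Depth is unknown, so no counting error can be given. TPM was recomputed per library over 17119 shared genes. Names turned into dates (22) were left out. Each comparison was fitted on log2(TPM + 1), which understates changes of low genes, with limma 3.58.1 (lmFit, eBayes with trend) in R 4.3.3, for genes with a mean of at least 1 TPM, with Benjamini-Hochberg adjustment over all genes and a threshold of 0.05. The code was tested on simulated data. Python 3.11.15, pandas 2.3.3, NumPy 2.4.6 and matplotlib 3.10.9 were used. The design assumed normalized values in the untreated table, which served only as an alternative. Named genes were the 8 members, up to 4 genes per list in order of p, the reference genes S100a8, S100a9, Ly6g, Mpo, Elane, Cebpe, Csf3, Mmp9 and Alb, and the 3 genes outside the 8 that were most like each member. Epcam, Cxcr2, Csf3r, Retnlg, Adgre1 and Chil4 were added with their values known. The members and lists were chosen with earlier results of these data known. Alternatives varied the pseudocount, filter, scaling, block, fit and libraries.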

Additional observations from a re-analysis of the deposited data

Results flagged for a closer look

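In pre_Liver replicate 4, 7 genes stood apart from the other 4 libraries of the group by Dixon's test: Camp at 69.9 TPM, Ngp at 340 TPM, Cd177 at 14 TPM, Mmp8 at 22.5 TPM, S100a8 at 417 TPM, Mpo at 66.5 TPM and Elane at 61.2 TPM. Pglyrp1 stood apart at the low end in post_Liver replicate 5 (186 TPM), and Csf3 at the low end in post_Liver replicate 4 (5.29 TPM). These were 9 flags among 34 groups of 5 libraries, where chance flags about 1 in 20, and the genes of 1 library are not independent of each other.

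The paclitaxel response differed between liver and fat pad by the interaction test (limma, adjusted over all genes) for 5 of the 8 members and for 6 reference genes, S100a8, S100a9, Ly6g, Mpo, Elane and Cebpe. Of all genes tested 2.23% were called in that direction, among them 15 of 24 mature neutrophil and 7 of 9 primary granule genes of the lists, which hold 5 of these 6. The liver response minus the fat pad response was 6.51 for Camp, 6.66 for Ngp, 5.00 for Cd177, 3.31 for Pglyrp1 and 4.55 for Mmp8, all on the log2 scale. It was 6.35 for S100a8, 6.68 for S100a9, 2.69 for Ly6g, 5.30 for Mpo, 5.51 for Elane and 3.90 for Cebpe.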

How the results depend on the processing

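No called member changed direction in the liver response, the fat pad response, the site difference after treatment or the interaction, under any alternative run. Before treatment, the untreated table as deposited, with values below 0 set to 0, gave 0 members called higher. The log2 differences were then −0.17 for Camp, −0.65 for Ngp, −0.56 for Ltf, 0.10 for Lcn2 and −0.47 for Mmp8, each opposite in sign to the value reported. That table carries a constant of 68.54 to 69.4 TPM for Ngp in pre_SC and pre_Liver replicates 1 to 3 and −77.1 and −70.21 in pre_Liver replicates 4 and 5, so sign changes follow from its construction. Without single libraries Ltf ran from −0.10 (pre_SC replicate 1 left out) to 1.34 and Mmp8 from −0.37 (pre_Liver replicate 4 left out) to 0.69, with −0.12 for Mmp8 without pre_SC replicate 1. Lcn2 was 0.03 and Mmp8 −0.20 with pre_Liver replicates 1 to 3 only. Neither Ltf nor Mmp8 nor Lcn2 was called in these alternatives. The count of 3 members became 1 with no filter, 1 with pre_Liver replicates 1 to 3 only, and 0 to 3 without single libraries. The 1 member called in the fat pad became 0 to 1 without single libraries. Counts of all genes moved most. Without single libraries they ran from 2117 to 9232 before treatment (6413 reported), 77 to 785 in the fat pad (919), 104 to 3976 in the liver (438), 406 to 1504 after treatment (1297) and 91 to 2585 for the interaction (414). With 1 fit of the 4 groups they were 108 in the fat pad, 2630 in the liver and 2063 after treatment. The liver count was 187 with the median of ratios and 244 with the scale that leaves out the liver-enriched genes. It was 79 with pre_Liver replicates 1 to 3 only and 154 with post_Liver replicates 2 and 3 averaged. Averaging was an alternative chosen after seeing the data, and it gave 257 for the interaction. The share of called genes that were higher before treatment was 31.3%. It was 55.5% with the median of ratios and 57.8% without the liver-enriched genes in the scale. For the interaction these shares were 73.7%, 58.3% and 60.9%. The causes were not tested.

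Whether the replicate numbers pair the libraries is not settled by these values. Correlations of same-numbered libraries ran from −0.29 to 0.07 before treatment and −0.14 to 0.13 in the fat pad. They ran from −0.12 to 0.74 in the liver and −0.05 to 0.05 after treatment. In that order of comparisons, 0 of 3, 1 of 3, 2 of 5 and 1 of 3 libraries correlated best with their own number. With the replicate block, all-gene counts were 3557 before treatment, 351 in the fat pad, 3073 in the liver and 1427 for the interaction. With it the fat pad count of members was 0 (Chil3 adjusted p = 0.0673, limma), Ltf passed for the interaction (adjusted p = 0.0162), and before treatment Chil3 did not pass (adjusted p = 0.0873), Lcn2 was 0.03 and Mmp8 −0.20. It changed no other member's call.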
